A study of Homo sapiens with 3 samples.

Results

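The 10 genes described here sense microbial or misplaced molecules inside the cell, assemble or execute the inflammasome, or carry and block the resulting interleukin-1 (IL-1) family signal. They are NOD1, NOD2, NLRP1, AIM2, IFI16, PYCARD, GSDMD, IL18, IL1B and IL1RN. They were chosen by name, among 11963 genes named on the array, and every probe set annotated to one of them alone was used. That gave 19 probe sets of 19065. A probe set is a group of short oligonucleotides on an Affymetrix array that together give 1 signal. Of the members, 6 had 1 probe set and 4 had several. The study measured HT-29 cells, an established human colon adenocarcinoma line, in 3 cultures described by the series as biological replicates. All cultures had been plated for 24 h in medium with 10% serum and then received 200 U/ml interferon-γ (IFN-γ) for 24 h. No untreated culture was analysed here, so the values are levels in treated cells of a single line and measure no response to IFN-γ.

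NOD1 and NOD2 are cytosolic receptors for fragments of bacterial peptidoglycan, and they signal to NF-κB through the kinase RIPK2. Inflammasomes are built when a sensor such as NLRP1 or AIM2 recruits the adaptor ASC, encoded by PYCARD, which in turn recruits pro-caspase-1. Active caspase-1 matures IL-1β and IL-18, the products of IL1B and IL18, and cleaves gasdermin D, the product of GSDMD, whose amino-terminal part forms membrane pores. IL1RN encodes the antagonist that occupies the IL-1 receptor without signalling. In the gut epithelium IL-18 and the NOD receptors are known for their part in defence at the mucosal surface, whereas IL-1β is best known from myeloid cells.

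The names of the probe sets in the deposited table went against their values, so the values were read through an inferred order before any gene was described. For each of 9033 probe sets, the mean log2 signal was set against the median of the other probe sets of its gene lying more than 30 rows away. Under the deposited names the correlation was r = -0.04 (rho = -0.04), and under the inferred order it was r = 0.53 (rho = 0.51), across probe sets, which are not independent replicates. Moving the inferred names by 1 row reduced r to 0.16 in one direction and 0.17 in the other, and no displacement of up to 20 rows gave more. The same comparison was made within 250 rows either side of each member probe set, leaving out the member's own gene. Windows of neighbouring probe sets overlap. At all 19 positions the inferred order had the highest r of the displacements tried, between 0.29 around the GSDMD probe set (80 partner probe sets) and 0.64 around an NLRP1 probe set (306 partner probe sets). The highest r of any other displacement in these windows ran from 0.12 to 0.33. The order had itself been inferred from agreement between probe sets of the same gene. The r values given here are therefore no independent check of it.

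**Figure D1:**
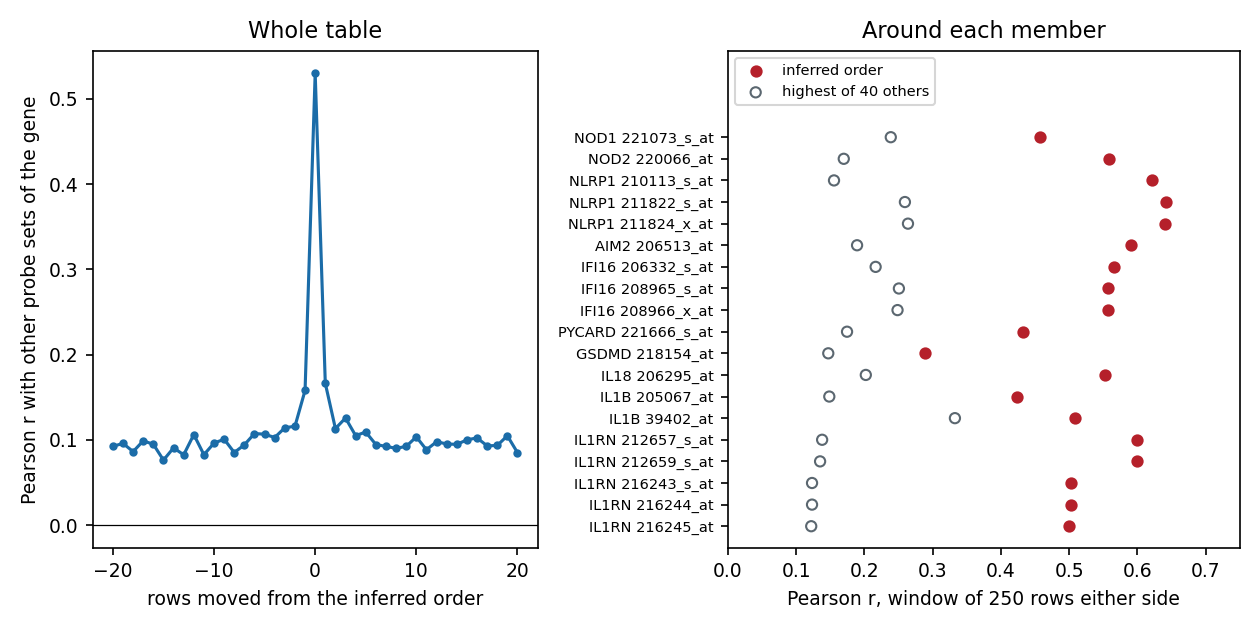
Pearson r between the mean log2 signal of a probe set and the median of the other probe sets of its gene. The left panel shows the whole table against the number of rows moved from the inferred order, with a single peak of 0.53 at 0. The right panel shows, for windows around the 19 member probe sets, the inferred order (filled) and the highest other displacement (open), and every filled point lies to the right of its open point.

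PYCARD, GSDMD, NOD1 and IL1RN were detected in the treated cells, whereas NOD2, NLRP1, AIM2, IFI16, IL18 and IL1B were not. A gene was called detected when its signal exceeded a background limit by more than the variation between replicates as estimated by limma. That estimate also draws on other probe sets or genes of similar signal. The limit of each array was set at the 95th percentile of the signals of 62 background genes, listed for this purpose as genes mainly of other tissues. It was a signal of 243, 255 and 184 on the arrays of replicates 1, 2 and 3. Not all of these genes need be silent in a colon line, and another list would give another limit. The highest of them on all 3 arrays, MBP (590, 555 and 360), was itself detected, at 1.12 log2 units over the limit. The test was limma's one-sided test on log2 signal minus limit, with Benjamini-Hochberg adjustment over all 19065 probe sets and a threshold of 0.05. Of the 19 member probe sets 4 were detected, 1 for each of the 4 genes (21.1%), beside 33.7% of all probe sets. Counted per gene, with each gene read from its brightest probe set, 4 of 10 members were detected beside 39.3% of all 11963 genes. The share was thus near that of all genes when counted per gene and below that of all probe sets when counted per probe set, and neither difference was tested. The median log2 signal relative to the limit was -0.64 over the 10 members and -0.23 over all genes. Below the limit on all 3 arrays were 13 member probe sets, and 6 genes had no probe set above it on any array. A signal under the limit does not show that a transcript is absent, since probe sets differ in how they respond to the same amount of RNA.

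**Figure D2:**
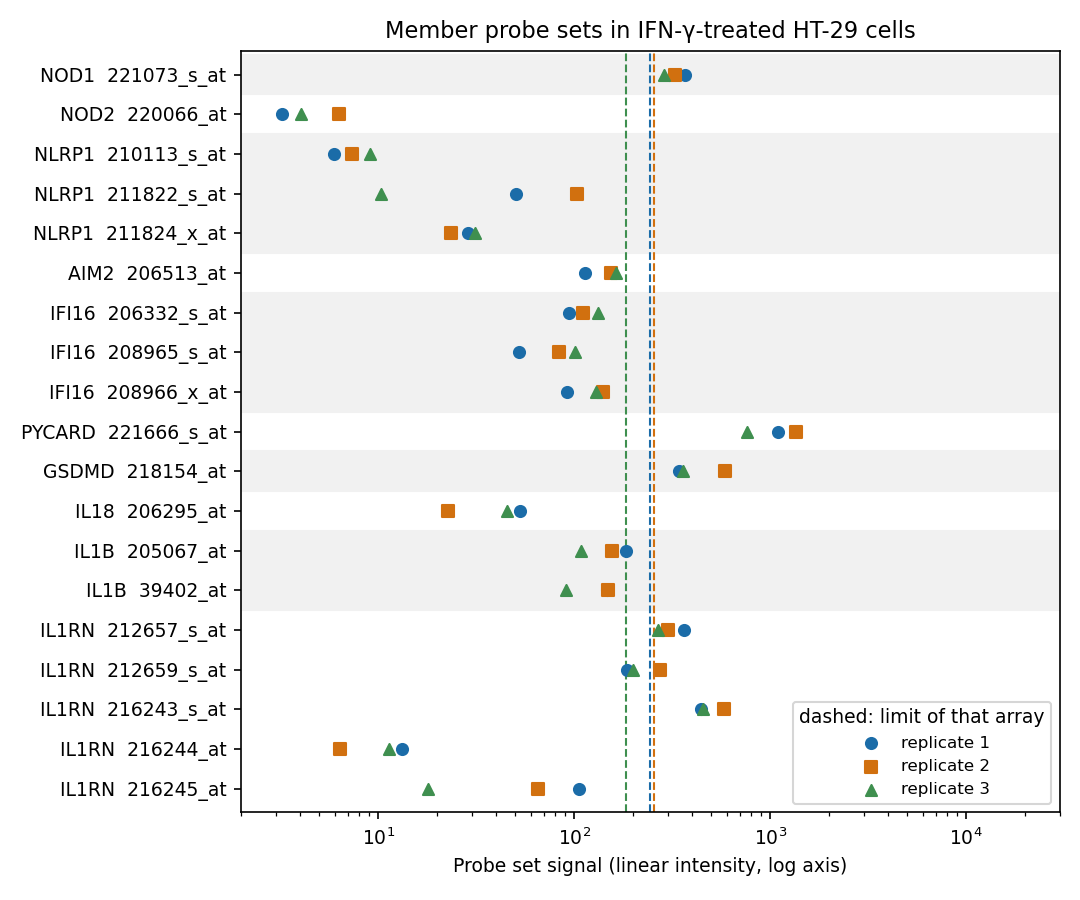
Signal of the 19 member probe sets on a log axis, 1 point per replicate array, with the background limit of each array as a dashed line of the same colour. PYCARD lies farthest to the right at 763 to 1348, GSDMD, NOD1 and the IL1RN probe set 216243_s_at lie to the right of all limits, and every IFI16, AIM2, NOD2, NLRP1, IL18 and IL1B point lies to the left of its own limit.

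Among the peptidoglycan receptors, NOD1 was detected and NOD2 was not. NOD1, which recognises a peptidoglycan fragment typical of Gram-negative bacteria, had signals of 368, 328 and 289 in replicates 1, 2 and 3. All 3 lay above their limits, by 0.60, 0.37 and 0.65 log2 units. The mean was 328 ± 39.4 (SD, n = 3), and the log2 difference to the limit was 0.54 (SE 0.21, limma adjusted p = 0.0475). This call was narrow. In the fit per gene it passed with an adjusted p of 0.0382 in limma's test, but it did not pass without replicate 1 (0.372), without replicate 2 (0.0549) or without replicate 3 (0.0567). With the highest background gene, MBP, as the limit, the NOD1 difference turned to -0.59. NOD2, which senses muramyl dipeptide and is a susceptibility gene for Crohn's disease, had signals of 3.25, 6.34 and 4.04. The mean log2 difference to the limit was -5.69 (SE 0.50), and the signals lay under the median of the background genes on every array (49.2, 53.5 and 62.3). Each gene had a single probe set, so no second measurement of either was available.

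The inflammasome sensors NLRP1 and AIM2 were below the limit on every probe set and every array. NLRP1, a sensor activated by proteases and viral double-stranded RNA, had 3 probe sets. The brightest, 211822_s_at, gave 50.6, 104 and 10.4, the second, 211824_x_at, gave 28.9, 23.5 and 31.3, and the third, 210113_s_at, gave 5.94, 7.37 and 9.07. The first of these was lowest in replicate 3 and the others were highest there, so the 3 probe sets did not vary together. AIM2, which binds double-stranded DNA in the cytosol, had signals of 114, 155 and 164. It lay closest to the limit in replicate 3 (-0.17 log2 units), then in replicate 2 (-0.72), and lowest in replicate 1 (mean -0.66, SE 0.30, limma adjusted p = 1).

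IFI16, a nuclear and cytosolic DNA sensor of the same PYHIN family as AIM2 and named as an IFN-γ-inducible protein, had 3 probe sets with similar behaviour. Probe set 208966_x_at gave 92.3, 140 and 129 in replicates 1, 2 and 3. Probe set 206332_s_at gave 94.4, 111 and 133, and probe set 208965_s_at gave 52.1, 83.4 and 101. All 3 were lowest in replicate 1, and all 9 values lay below the limit of their array. The log2 differences to the limit were -0.92 (SE 0.31), -1.01 (SE 0.32) and -1.57 (SE 0.38). In RefSeq the genes IFI16 and AIM2 are neighbours on chromosome 1, and MNDA and PYHIN1, the other measured PYHIN family genes, were not detected either, at -6.78 and -0.59 log2 units. The suffix _x_at marks a probe set whose oligonucleotides can bind related transcripts, and _s_at one shared by several transcripts. Such suffixes were carried by 11 of the 19 member probe sets.

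PYCARD had the smallest adjusted p of the members. The adaptor ASC joins the pyrin domain of a sensor to the recruitment domain of caspase-1. Its single probe set, 221666_s_at, gave 1094, 1348 and 763 in replicates 1, 2 and 3, with a mean of 1068 ± 293 (SD, n = 3). Every array lay more than 2 log2 units over its limit, and the mean difference was 2.21 (SE 0.19, limma adjusted p = 2.9e-06), a 4.62-fold excess over the limit. PYCARD remained detected under every alternative with the inferred order in which it was measured, including the highest background gene as the limit. GSDMD, the pore-forming executor of pyroptosis, gave 344, 590.5 and 360 on its single probe set, which carries no suffix. All values lay above the limit, by 0.50, 1.21 and 0.97 log2 units, with replicate 2 standing above the other two. The mean was 431 ± 138 (SD, n = 3) and the log2 difference 0.89 (SE 0.22, limma adjusted p = 0.00456). With the highest background gene as the limit, the GSDMD difference turned to -0.23.

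The cytokine genes of the IL-1 axis were below the limit, whereas the antagonist IL1RN was detected on 1 of 5 probe sets. IL18, a cytokine stored as a precursor in epithelial cells, gave 52.7, 22.8 and 45.2 in replicates 1, 2 and 3. The mean log2 difference to the limit was -2.57 (SE 0.45), and no array reached it. IL1B gave 183, 156 and 109 on probe set 205067_at and 147, 149 and 91.1 on probe set 39402_at. Both probe sets were lowest in replicate 3, and all 6 values lay below the limit. The log2 differences of -0.63 (SE 0.27) and -0.84 (SE 0.28) differed by less than either standard error.

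IL1RN, the IL-1 receptor antagonist, had probe sets on both sides of the limit. Probe set 216243_s_at gave 444, 578 and 453, a mean of 492 ± 75.04 (SD, n = 3), and was detected at 1.12 log2 units over the limit (SE 0.20, limma adjusted p = 0.000631). Probe set 212657_s_at gave 365, 299.98 and 268, above the limit on all arrays, and did not pass (0.45, SE 0.22, limma adjusted p = 0.0941). Probe set 212659_s_at gave 186, 274 and 199 and lay at the limit (-0.06, SE 0.25). Probe sets 216244_at (13.3, 6.42 and 11.4) and 216245_at (106, 65.3 and 18.0) lay at -4.51 and -2.17 log2 units. The 3 probe sets at or above the limit all carry the _s_at suffix, and the 2 far below it carry none. Without suffixed probe sets, IL1RN was read from 216245_at and was not detected. With the median over its probe sets it did not pass (limma adjusted p = 0.0554). With the highest background gene as the limit, 216243_s_at itself turned to -0.0068. With the limit and fit used here the detection of IL1RN therefore rests on 1 probe set. Under 3 alternatives 212657_s_at passed as well. Its limma adjusted p was 0.0121 with the limit at the 90th percentile and 0.0486 with the limit over all background probe sets. It was 0.0458 after dim probe sets were left out.

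**Figure D3:**
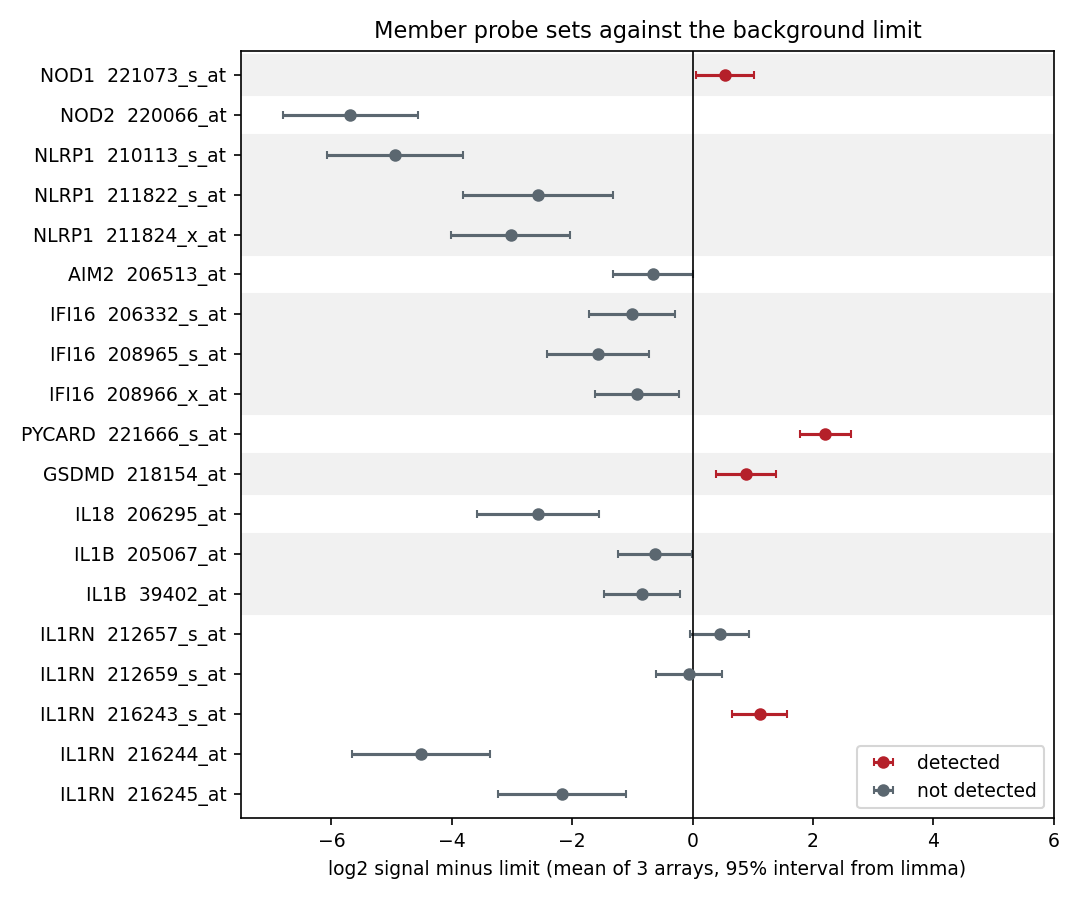
Mean log2 signal minus background limit of the 19 member probe sets over 3 arrays, with 95% intervals from limma. Filled red points are the 4 detected probe sets, led by PYCARD at 2.21, and the interval of NOD1 at 0.54 ends just above 0.

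The sequence upstream of several members was read from RefSeq (GRCh38.p14), because GAS and ISRE elements are known from promoters of interferon-responsive genes, and because PYCARD is also known as a target of silencing by methylation of CpG sites in its promoter. The array measured neither binding nor methylation. Windows of 250 bases before an annotated start were listed for 7 of the 10 members, 11 windows in all, and none was listed for NLRP1, GSDMD and IL18. The GAS pattern, TTCNNNGAA with N for any base, was searched on both strands and occurred in 6.57% of all 35116 such windows. The ISRE pattern, GAAA repeated after any 2 bases, occurred in 3.02%. Among the 11 member windows, 1 held the GAS pattern (IL1B) and 3 held the ISRE pattern (AIM2 and 2 overlapping windows of IL1RN). The 2 IL1RN windows share the same match, 113 bases before 1 start and 222 bases before the other. The PYCARD window on chr16:31202761-31203010, minus strand, held 16 CpG dinucleotides and neither pattern. The median over all windows was 11, and 59.0% of all windows held fewer than the PYCARD window. The NOD1 window held 26 CpG dinucleotides, more than 80.4% of all windows, and neither pattern. In the PYCARD sequence the CpG dinucleotides are in capitals. In the windows of AIM2 (chr1:159076767-159077016, minus strand), IL1RN (chr2:113127348-113127597, plus strand) and IL1B (chr2:112836780-112837029, minus strand), the capitals mark the ISRE match, the ISRE match and the GAS match. A match is a pattern of letters and not a bound site.
PYCARD: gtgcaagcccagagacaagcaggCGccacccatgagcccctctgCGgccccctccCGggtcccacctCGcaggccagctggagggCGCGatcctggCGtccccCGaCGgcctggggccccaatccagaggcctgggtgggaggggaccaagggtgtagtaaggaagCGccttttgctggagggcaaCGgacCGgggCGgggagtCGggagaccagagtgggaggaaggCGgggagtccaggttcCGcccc
AIM2: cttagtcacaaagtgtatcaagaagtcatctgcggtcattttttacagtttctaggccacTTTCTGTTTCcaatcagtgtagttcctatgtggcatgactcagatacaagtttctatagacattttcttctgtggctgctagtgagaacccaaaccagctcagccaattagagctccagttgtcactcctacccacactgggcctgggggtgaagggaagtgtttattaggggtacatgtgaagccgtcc
IL1RN: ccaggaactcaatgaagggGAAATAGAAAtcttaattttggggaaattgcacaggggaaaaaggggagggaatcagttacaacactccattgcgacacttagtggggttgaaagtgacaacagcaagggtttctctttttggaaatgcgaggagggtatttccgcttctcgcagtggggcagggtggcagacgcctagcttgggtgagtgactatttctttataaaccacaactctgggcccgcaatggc
IL1B: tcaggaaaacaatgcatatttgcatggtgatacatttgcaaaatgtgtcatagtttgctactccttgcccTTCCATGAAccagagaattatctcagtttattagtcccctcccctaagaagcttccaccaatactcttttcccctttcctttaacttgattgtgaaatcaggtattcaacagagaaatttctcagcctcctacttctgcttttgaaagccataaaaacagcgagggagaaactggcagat
Of the genes shown, PYCARD and IL1RN were detected and AIM2 and IL1B were not, so an ISRE match stood upstream of both a detected and an undetected member. In the IL1RN window the match lay 222 bases before the start, and in the AIM2 window 181 bases. The GAS match of IL1B lay 172 bases before its start. IFI16, with windows at 2 starts, held neither pattern in these stretches.

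Other genes of the pathway were taken from 6 lists by role, and 33 of their 78 measured genes (42.3%) were detected, beside 39.3% of all genes. Caspases, adaptors and regulators of the inflammasome were detected for 15 of 20 measured genes, with a median of 2.11 log2 units over the limit compared with -0.23 over all genes. The detected genes with the smallest adjusted p were GBP1, a guanylate-binding protein that marks intracellular bacteria for caspase-4, at 5712 ± 976 (SD, n = 3), and the chaperones HSP90AB1 (14802 ± 1468) and HSP90AA1 (13182 ± 3763). CASP5, a sensor of cytosolic lipopolysaccharide, was not detected at 75.7 ± 25.1 (SD, n = 3), and CARD8, an inflammasome sensor related to NLRP1, was not detected at 170 ± 36.9 (SD, n = 3). CASP1 and CASP4, named here after their values were seen because they act directly on GSDMD, were both detected. CASP1 gave 1838, 1456 and 1767, and CASP4, another sensor of cytosolic lipopolysaccharide, gave 1086, 1137 and 1734.

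Further cytosolic and surface sensors were not detected in any of 10 measured cases, and 0 of the 10 had an unadjusted p under 0.05 in limma's test. The list held NLRX1, NAIP, NLRP2, NLRP3, CIITA, MEFV, MNDA, PYHIN1, TLR4 and TLR2. CIITA, the class II transactivator of the NLR family, came closest with 180, 181 and 198 (-0.27 log2 units), and only its replicate 3 lay above the limit. MEFV, the sensor pyrin, gave 110, 168 and 172.

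Partners of NOD signalling were detected for 11 of 19 measured genes, with a median of 1.33 log2 units over the limit. RIPK2, the kinase directly downstream of NOD1 and NOD2, gave 2217 ± 118 (SD, n = 3) on its brighter probe set and lay at -0.23 log2 units without suffixed probe sets. RBCK1, a subunit of the linear ubiquitin ligase, had 4675 ± 956 and the ubiquitin ligase BIRC2 had 1846 ± 559 (SD, n = 3 each). ATG16L1, an autophagy protein that NOD receptors recruit, was not detected at 11.6 ± 1.51 (SD, n = 3), nor was the kinase IKBKB at 89.8 ± 32.0 (SD, n = 3). Pore formers and factors of membrane rupture and repair were detected for 2 of 5 measured genes. ANXA2, a membrane-binding annexin, had 17724 ± 4588 (SD, n = 3). GSDMB, a gasdermin cleaved by granzyme A, had 603 ± 139 (SD, n = 3) on the probe set 219233_s_at but lay at -2.14 log2 units without suffixed probe sets. GSDME, a gasdermin cleaved by caspase-3, gave 39.5, 64.5 and 148, and NINJ1, which ruptures the membrane of dying cells, gave 123, 237 and 187, and neither was detected.

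Other IL-1 family ligands and binding proteins were not detected in any of 7 measured cases, with 0 at an unadjusted p under 0.05 in limma's test and a median of -2.55 log2 units. IL1A, the other IL-1 agonist, gave 77.2, 66.8 and 70.9. IL18BP, the soluble inhibitor of IL-18 and a known target of IFN-γ, gave 105, 93.9 and 27.4. Receptors and signalling proteins of the family were detected for 5 of 17 measured genes. The detected ones were SIGIRR, TOLLIP, MYD88, IRAK1 and JUN, of which the adaptor MYD88 had 2438 ± 532 and the kinase IRAK1 had 6517 ± 855 (SD, n = 3 each). JUN, a subunit of the transcription factor AP-1, had 934 ± 312 (SD, n = 3) on 1 detected probe set of 4. The receptor chains IL18R1 (46.3, 6.54 and 11.04) and IL18RAP (31.1, 51.9 and 88.8) were not detected, and neither were IL1R1 at -2.63 and IL1RAP at -2.64 log2 units.

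**Figure D4:**
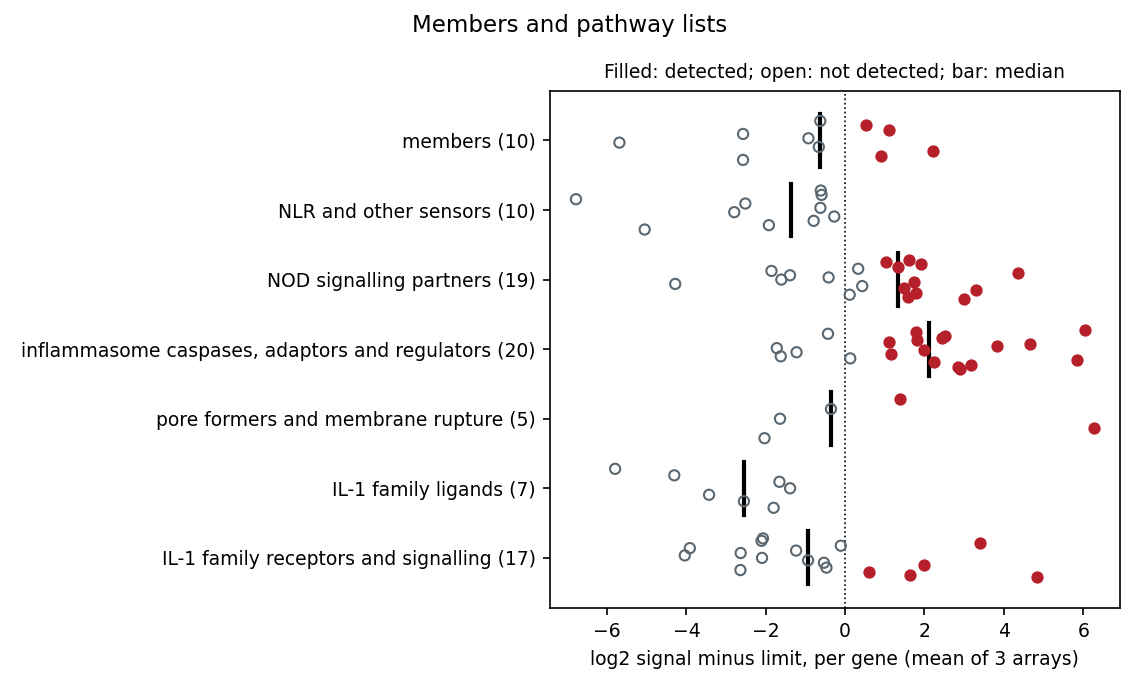
Log2 signal minus background limit per gene, mean of 3 arrays, for the 10 members and the 6 pathway lists, with detected genes filled and a bar at each median. The list of inflammasome caspases, adaptors and regulators has its median at 2.11, whereas the lists of sensors and of IL-1 family ligands hold no detected gene.

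Most epithelial markers were detected, and few markers of other cell types were, beside 39.3% of all genes detected. Of 12 epithelial markers 11 were detected, among them EPCAM at 8942 ± 3370.3, the cadherin CDH1 at 5232 ± 1127 and the keratin KRT8 at 11967 ± 2674 (SD, n = 3 each), and CDH17 was not. Of 15 measured myeloid markers 1 was detected, the lysozyme gene LYZ with 6777, 6612 and 14391 in replicates 1, 2 and 3, a gene that secretory epithelial cells also express. The summed signal of the myeloid list ran from 7491 to 15258, nearly all of it from LYZ. CD14, CSF1R and ITGAM were not detected, at 112 ± 12.6, 78.4 ± 16.9 and 160 ± 29.7 (SD, n = 3 each), and the pan-leukocyte gene PTPRC lay at -4.24 log2 units. None of the T and NK, B and plasma or endothelial markers was detected (0 of 12, 7 and 7 in limma's test). Of these, 0 had an unadjusted p under 0.05 in limma's test. COL1A1 was the 1 detected of 8 fibroblast markers, narrowly (limma adjusted p = 0.0424 per gene). In the fit per probe set 0 of its 4 probe sets passed. The keratin KRT10 was the 1 detected of 6 keratinocyte markers, at 2.91 log2 units over the limit. In a culture measured as a whole, fewer cells making a transcript and less transcript per cell cannot be told apart.

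The members varied between arrays about as much as other probe sets. Over the 19 member probe sets the log2 signal had a median SD of 0.38, between 0.29 for all detected and 0.49 for all undetected probe sets. Among detected members, the SD lay at percentile 22.8 of detected probe sets for NOD1, 31.9 for IL1RN, 73.2 for PYCARD and 75.7 for GSDMD. PYCARD, GSDMD and IL1RN were highest in replicate 2, and NOD1 was highest in replicate 1. Over all detected probe sets 27.5% were highest in replicate 1, 35.7% in replicate 2 and 36.7% in replicate 3. The log2 signals of replicates 2 and 3 correlated least (r = 0.88, compared with 0.95 for replicates 1 and 2 and 0.94 for replicates 1 and 3, across probe sets). Without replicate 3 the detected members were PYCARD, GSDMD and IL1RN. The detected pathway gene whose deviations over the 3 arrays came closest to those of PYCARD was the lysosomal protease gene CTSB, with signals of 792, 1043 and 555 and a root mean square difference of 0.04 log2 units. For GSDMD it was NFKB1 (0.18), for NOD1 SERPINB1 (0.08) and for IL1RN MAP3K7 (0.08), each among 33 genes and over 3 arrays. With so few arrays this likeness is a description and has no test.

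**Figure D5:**
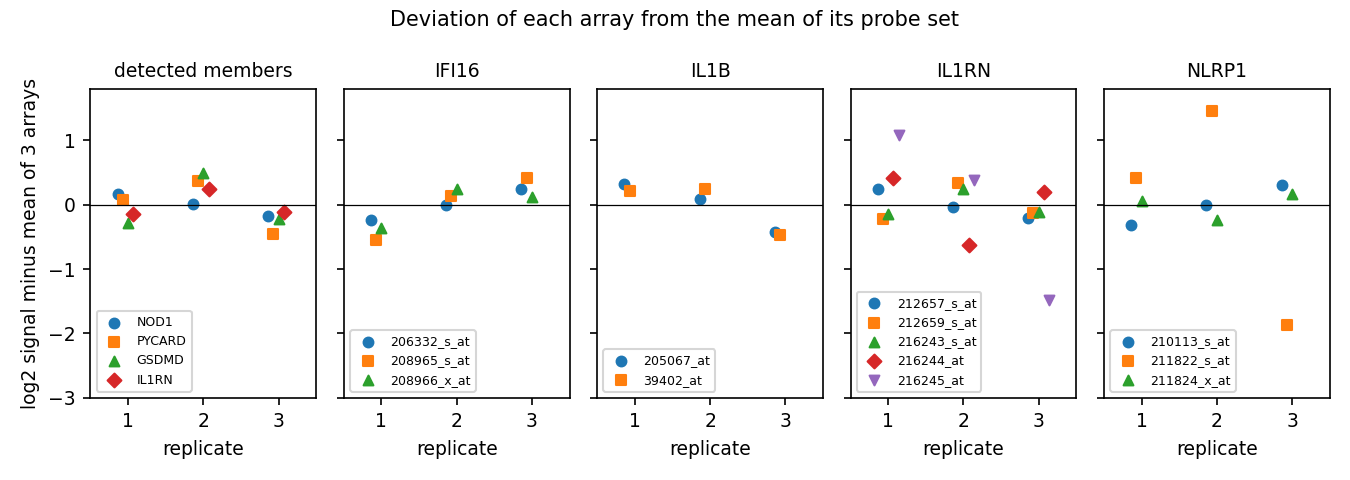
Log2 signal of each replicate array minus the mean of the 3 arrays, for the detected probe set of each detected member and for all probe sets of IFI16, IL1B, IL1RN and NLRP1. The 3 IFI16 probe sets are all lowest in replicate 1 and the 2 IL1B probe sets are both lowest in replicate 3, whereas the IL1RN and NLRP1 probe sets scatter in different directions.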

How the data were processed

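RNA from 3 cultures was hybridised to 1-colour Affymetrix arrays. Deposited per probe set is an intensity on a linear scale. The submitters' processing notes name MAS5 and Expression Console 1.1 from Affymetrix. Scaling target, background step and presence calls are not given in the sources used here. Median signals were 137, 144 and 141. Precision is limited by having 3 arrays. P-values rest on the spread between these cultures, combined by limma with the spread of other probe sets or genes of similar signal.

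Of 22283 probe sets, 6 were empty. Names were re-ordered as follows. The first 15 values stayed unnamed. Then came 100 probe sets whose numbers start at 200000, 493 with lower numbers and 21622 others, with 47 unnamed values last. Every gene value depends on this order. Probe sets with 1 gene symbol were used (19065), 1043 had several and 2169 none listed. Log2 signal minus the limit was fitted by limma 3.58.1 in R 4.3.3 as a single mean, and the variance prior followed the signal. The limit was treated as known. The fit was tested on simulated data.

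Members and lists were chosen with earlier results of these data known. All members were named. From each pathway list, the 3 detected genes with the smallest adjusted p and 2 undetected genes were named. Undetected genes mostly tie at an adjusted p of 1, so that pair was set by alphabetical order. Also named were, from the epithelial and myeloid markers, the first 3 measured. Alternatives covered name order, limit, variance prior, normalization, pseudocount, dim and suffixed probe sets, probe set median and single replicates.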

Additional observations from a re-analysis of the deposited data

How the results depend on the processing

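The 4 detected calls among the member genes depended on the order of the names. The 6 undetected member genes stayed undetected in the deposited order. In the deposited order 0 member probe sets, 0 member genes and 2 pathway genes were detected. Over all features, 284 of 19065 probe sets and 313 of 11963 genes were then detected. NOD1 lay at -4.11, PYCARD at -5.53, GSDMD at -8.47 and IL1RN at -2.38 log2 units. The limit was computed again in each order, from the values that then carried the names of the background genes. With names moved 1 row up the counts were 0, 0 and 12, beside 1273 of all probe sets and 1234 of all genes. With names moved 1 row down they were 1, 1 and 14, beside 1523 and 1418. For single genes, other orders were applied to members in the deposited order alone, since the value is then that of another probe set.

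With the highest background gene as the limit, 1 member probe set and 1 member gene (PYCARD) were detected. That limit was the signal of MBP alone, which was itself detected at 1.12 log2 units over the main limit. The next background gene, SFTPC, lay at 0.32 and was not detected. Against MBP, NOD1 lay at -0.59, GSDMD at -0.23, IL1RN and its probe set 216243_s_at at -0.0068 and 212657_s_at at -0.67. All detected genes fell from 4698 to 2781. Without suffixed probe sets 1 of 8 member probe sets, 1 of 6 member genes (GSDMD) and 16 of 52 pathway genes were detected. NOD1 and PYCARD were then not measured. This choice also lowers the limit, since it drops background probe sets: IL1RN 216245_at moved from -2.17 to -1.77 and GSDMD from 0.89 to 1.30 on unchanged signals. IL1RN lay at -1.77, RIPK2 at -0.23, GSDMB at -2.14 and JUN at -0.22. CIITA at 0.13 and NINJ1 at 0.0472 turned through the lower limit, on the same probe sets. IL1RN 212659_s_at turned to 0.16 with the limit at the 90th percentile and to 0.0022 with the limit over all background probe sets. With medians over probe sets, which also lower the limit, CARD8 lay at 0.12, NINJ1 at 0.20, GSDMB at -0.0205 and JUN at -0.066. Why values moved was not tested beyond these constructions.

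NOD1 also missed the threshold in limma without a variance trend (adjusted p = 0.0754) and with quantile normalization (0.0603). Leaving out 1 replicate gave 3 member probe sets and 3 member genes each time, 32 to 33 pathway genes and a median spread of 0.31 to 0.34. Apart from the name orders, all 17 changes of direction or call among members fell on NOD1, GSDMD and IL1RN with its probe sets. No paired analysis was possible because all arrays form 1 group.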
